A study of Cicer arietinum with 8 samples.

Results

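Roots of chickpea (Cicer arietinum) seedlings were compared with and without 150 mM NaCl in the nutrient medium for 48 h, on 2-colour cDNA arrays that read both RNAs on the same slide. The comparison took in every array of the sample titled as salt roots at 48 h, which is 1 of 8 samples in the series, 3 of its 24 arrays and 6 of its 48 channel files. Salt-treated plants of genotype ICC 3996 were 18 days old when their Hoagland's medium was exchanged for the same medium with NaCl. Control plants of the same genotype and age were grown in the same hydroponic way and had their medium exchanged without NaCl. Roots were taken from 5 plants per group 48 h later, and the RNA came from pooled tissue. The labels speak of 3 biological replications but do not say how the pools were made, so the p-values below measure the spread between arrays. The labels call the dose toxic to chickpea, and the comparison asks which root transcripts stand higher or lower under it. The RNA of whole roots was read, so more or fewer cells of a type cannot be told apart from more or less RNA per cell.

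Roots are the first organ to meet salt in the medium. High NaCl lowers the water potential outside the root, which slows water uptake within minutes to hours, and sodium and chloride then build up in the tissue. Plants are known to answer with signalling through calcium and abscisic acid, with osmolytes and protective proteins, with enzymes that remove reactive oxygen, and with transporters that pump sodium out of the cell, store it in the vacuole or take it back out of the xylem. Chickpea is counted among the salt-sensitive grain legumes. The arrays identify each probe only by a code, and no gene description was at hand for the codes, so no role is given to a probe here and no sequence is shown. For the same reason the tissue label could not be checked against root markers.

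Leaving out control spots, 756 probes were printed on each array, every one in 6 spots. By the prefix of their codes 442 probes are of class U, 117 of class CA, 156 of class LS and 41 of class LC. The files used here do not say what the prefixes stand for. Salt-treated RNA carried the dye Cy5 on arrays 1 and 2 and Cy3 on array 3. The control spots named Cy5-10T were 33.1 to 51.6 times as bright as their local background where the file name gives Cy5 and 1.46 to 2.80 times where it gives Cy3, so the dye names stood up on all 3 arrays. The 3 arrays shared no scan with each other or with other arrays, in that 0% of spots had the same pixel SD in any of 66 pairs that hold 1 of them. With 3 arrays, the number of arrays sets how precise any value can be.

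Many more root probes were visible in salt-treated than in control RNA. A probe counted as visible, or above background, when 50% or more of its spots in a channel exceeded the local background by 2 of that background's SDs. In salt-treated roots 443, 404 and 406 probes passed on arrays 1, 2 and 3, against 162, 335 and 243 probes in control roots. The salt-treated channel had more on every array, and every salt-treated count was above every control count. Shoots of the same experiment at 48 h had 476, 442 and 390 probes in salt-treated RNA, against 467, 443 and 370 probes in control RNA. All 6 of these arrays were quantified on the same day. The gap in roots held with control RNA in either dye, Cy3 on arrays 1 and 2 and Cy5 on array 3.

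**Figure D1:**
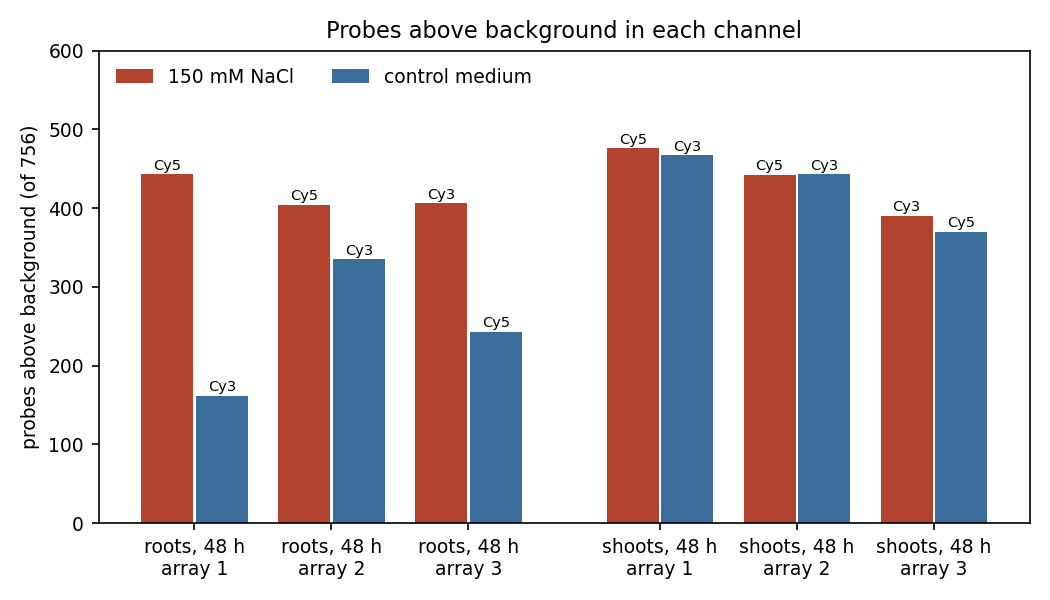
Number of probes above background (vertical axis, of 756) in each channel of the 3 root arrays and, for comparison, the 3 shoot arrays at 48 h. Salt-treated bars (red) stand left of control bars (blue) and the dye is printed above each bar; in roots the salt-treated counts of 404 to 443 all exceed the control counts of 162 to 335, while in shoots both channels are close on each array.

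Probe by probe the direction was the same. There were 318 probes above background in salt-treated roots on more arrays than in control roots, and 19 for which the reverse held. Another 154 were seen on equally many arrays in both, and 265 were seen in no root channel. All 3 salt-treated channels showed 350 probes, and all 3 control channels showed 128, each of which was also above background in all 3 salt-treated channels. There were 48 probes above background in salt-treated roots on all 3 arrays and in control roots on none, while 0 probes showed the reverse. The control channels were dimmer as a whole, as the next values show, and the part this has in these counts was not tested.

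Before any normalisation, the median probe was brighter in the salt-treated channel on each array, by 3.06, 0.61 and 0.98 on the log2 scale on arrays 1, 2 and 3. Spots free of the image software's flags numbered 2605, 2289 and 1989 in salt-treated channels, against 602, 1610 and 1431 in control channels. The ratios below were normalised by loess, which sets the median near 0 on each array (0.17, 0.04 and 0.02 after it). A probe called higher or lower is therefore higher or lower relative to the other probes measured on its array, and a change shared by most transcripts would not be seen. Ratios came only from spots without a flag in both channels, which left 126, 308 and 278 probes on arrays 1, 2 and 3. Across probes the ratios of array 1 correlated with those of array 2 with r = 0.66 (121 probes) and of array 3 with r = 0.61 (122 probes), and arrays 2 and 3 with r = 0.72 (237 probes). The swapped array thus correlated with the others about as well as they did with each other. Probes that share a spot field and a hybridisation are not independent replicates.

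Of 244 probes with a ratio on at least 2 arrays, 100 (41.0%) passed an adjusted p of 0.05 in limma, 56 higher (23.0%) and 44 lower (18.0%) in salt-treated roots. Without normalisation, a setting added after the data were seen, 137 passed, all higher, with the median tested probe at 1.13 on the log2 scale, so the lower calls are relative to the loess centre. The fitted ratios lay between -1.58 and 2.87 on the log2 scale, and their median was 0.02. The rises had a median of 0.96 (1.94-fold) and the falls of -0.81 (1.75-fold lower). Of the rises 26 reached 2-fold and 7 reached 4-fold, while 14 falls reached 2-fold and 0 reached 4-fold. All arrays that measured a called probe gave it the same sign in 99 of 100 cases, CA1080 being the exception with 0.12 on array 1 and -1.30 and -1.13 on arrays 2 and 3. A ratio in both dye orientations was at hand for 99 of the calls, and in each of those 99 the swapped array had the sign of the fitted ratio. Of all 241 tested probes with both orientations, 182 had the same sign in both. The calls rest on these same ratios and favour arrays that match, so these counts are no separate check of the dye.

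**Figure D2:**
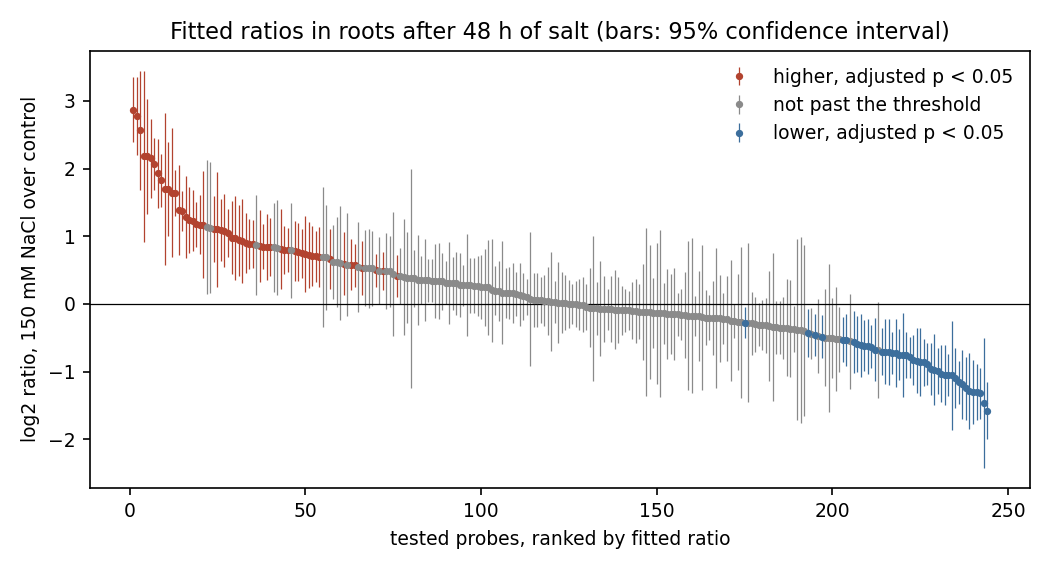
Fitted log2 ratio of salt-treated over control roots (vertical axis) of the 244 tested probes, ranked by that ratio (horizontal axis), with 95% confidence intervals as bars. The 56 rises (red) reach 2.87 and the 44 falls (blue) reach -1.58, so the upper end stretches further from 0 than the lower end.

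The calls rested on different numbers of arrays. On all 3 arrays 118 probes were tested and 56 called, 24 higher and 32 lower, while on 2 arrays 126 were tested and 44 called, 32 higher and 12 lower. The split of the calls between higher and lower therefore moved with how many arrays measured a probe. In the same way 28 of the 56 rises had a control channel above background on all 3 arrays, 18 on 2 and 10 on 1, against 34 of the 44 falls on all 3. The count of calls also moved with single arrays, being 47 without array 2 and 49 without array 3, over 122 and 121 tested probes. A t-test on each probe's 3 ratios, as the methods name it, gave 26 of 118 probes at an unadjusted p under 0.05, all of them also called by limma, and 0 after Benjamini-Hochberg adjustment.

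Among probes measured on all 3 arrays, CA0554 had the largest fitted rise, though its rank against the also saturated U017 and CA0550 is not fixed. Its signal was 74.7, 76.4 and 36.9 times the local background in salt-treated roots, against 2.31, 9.64 and 3.29 times in control roots. Log2 ratios after normalisation were 2.32, 2.38 and 3.60 on arrays 1, 2 and 3. The channels did not overlap, and all salt-treated signals reached the scanner's maximum. The rise is therefore a bound, estimated at 6.81-fold (fitted log2 2.77 ± 0.27 SE, limma adjusted p = 2.27e-06). This bound is not a strict minimum, because the fitted log2 ratio ran from 2.07 to 4.36 under alternative processing settings. U286 had the next largest fitted rise, with 54.5, 25.2 and 14.5 times background in salt-treated roots and 1.82, 5.41 and 3.70 times in control roots. Its ratios of 2.33, 1.55 and 1.85 gave a rise of 3.54-fold (log2 1.83 ± 0.18 SE, adjusted p = 3.6e-06), with every salt-treated signal above every control signal. The 2.33 of array 1 rests on 2 spots.

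U017 and CA0550 formed a bright and much more variable pair. U017 had 67.6, 94.4 and 26.7 times background in salt-treated roots, against 3.69, 16.6 and 5.05 times in control roots, and CA0550 had 50.8, 76.7 and 23.1 times in salt-treated roots, against 4.23, 18.0 and 5.52 times in control roots. Their log2 ratios were 0.83, 1.48 and 2.75 for U017 and 0.74, 1.48 and 2.58 for CA0550, lowest on array 1 and highest on the swapped array in both. The values of the swapped array rest on 2 of 6 spots for each probe. With at least 3 unflagged spots required, neither was called (adjusted p = 0.111 for each). Both were saturated in salt-treated roots on all 3 arrays. The rises are bounds, estimated at 3.14-fold for U017 (adjusted p = 0.02) and 3.16-fold for CA0550 (adjusted p = 0.0112). They are not strict minima either. Under alternative processing settings the fitted log2 ratio ran from 0.13 to 3.40 for U017 and from 0.21 to 3.38 for CA0550. Without array 3 neither was called, with U017 at 0.92 (adjusted p = 0.293) and CA0550 at 1.04 (adjusted p = 0.151) on the log2 scale. U061 was as bright, with 60.1, 66.5 and 29.1 times background in salt-treated roots and 3.34, 20.2 and 6.35 times in control roots. It was saturated in salt-treated roots on arrays 1 and 2, so its ratios of 1.04 and 1.17 there are cut off, and array 3 gave 1.84. The fitted rise of 2.59-fold (log2 1.37 ± 0.14 SE, adjusted p = 2.27e-06) is no exact size for that reason.

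The other 5 of the 10 largest rises on 3 arrays lay between 2.06-fold and 2.26-fold, and they differed in how well the arrays matched. U455 was the tightest, with ratios of 1.21, 1.08 and 1.17 (log2 1.17 ± 0.15 SE, adjusted p = 0.000215). With loess run within each subgrid of the array, U455 was not called (0.57, adjusted p = 0.0578 in limma). CA0863 had 0.83, 0.82 and 1.16 (adjusted p = 0.000215), and U007 had 1.40, 1.39 and 0.68 (adjusted p = 0.000391). The 1.40 of U007 rests on 1 spot. U244 spread further, with 1.92, 0.42 and 1.06 (adjusted p = 0.00128). CA0858 spread furthest of the 5, with 2.07, 1.08 and 0.33, and its fitted 1.17 ± 0.37 SE was called at an adjusted p of 0.0208. It was not called without array 1 (0.71, adjusted p = 0.199) or without array 2 (1.20, adjusted p = 0.0552), and stood at 1.77 without array 3. All 3 signs were positive for each of the 5, as the choice of named probes required.

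Further large rises were measured on arrays 2 and 3 only, where 1 array had salt-treated RNA in Cy5 and the other in Cy3. U270 was at 62.9, 61.5 and 19.0 times background in salt-treated roots on arrays 1, 2 and 3, against 1.65, 5.72 and 2.78 times in control roots. Ratios of 2.86 on array 2 and 2.88 on array 3 gave a rise of 7.32-fold (log2 2.87 ± 0.22 SE, adjusted p = 9.01e-07). LS0125 was at 29.5, 18.2 and 13.0 times background in salt-treated roots, against 1.26, 2.64 and 1.93 times in control roots, with ratios of 2.55 and 2.57. It rose 5.91-fold (log2 2.56 ± 0.41 SE, adjusted p = 0.000276) and was the single LS probe called higher. CA1126 was less even, with 52.3, 20.8 and 12.0 times background in salt-treated roots, against 1.37, 2.46 and 3.19 times in control roots, and ratios of 2.77 and 1.59, and it rose 4.54-fold (log2 2.18 ± 0.59 SE, adjusted p = 0.00926). In all 3 probes array 1 gave no ratio because of flagged spots, and its control signal was the lowest of the 6 channels.

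U350 and U126 rose on the same pair of arrays. U350 had 24.3, 18.7 and 11.8 times background in salt-treated roots, against 1.57, 3.97 and 2.12 times in control roots. Its ratios of 1.73 and 2.40 gave a rise of 4.20-fold (log2 2.07 ± 0.18 SE, adjusted p = 2.12e-06). U126 had 51.2, 24.3 and 7.14 times background in salt-treated roots, against 1.17, 4.72 and 2.42 times in control roots, and rose 3.24-fold (ratios 2.13 and 1.26, log2 1.70 ± 0.32 SE, adjusted p = 0.000752). Neither overlapped between salt-treated and control channels.

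U135 fell most. Its signal was 5.33, 11.0 and 3.12 times background in salt-treated roots, against 4.50, 15.0 and 4.37 times in control roots. The ratios were -2.41, -1.38 and -1.38, which gave a fall of 2.98-fold (log2 -1.58 ± 0.20 SE, adjusted p = 2.83e-05). On array 1 the salt-treated spot was still the brighter relative to background, and the negative ratio there is relative to the array's other probes. U404 showed this more clearly. It was at 24.8, 21.4 and 5.30 times background in salt-treated roots, against 5.72, 17.1 and 7.90 times in control roots. Its normalised ratios of -1.63, -0.76 and -1.36 gave a fall of 2.49-fold (log2 -1.32 ± 0.18 SE, adjusted p = 3.71e-05). Without normalisation its fitted ratio was 0.28, above 0.

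CA0009 and LS0975 were the falls with the next largest sizes on 3 arrays. CA0009 was at 16.2, 19.7 and 16.6 times background in salt-treated roots, against 5.42, 22.5 and 19.6 times in control roots. Its ratios of -1.65, -1.07 and -0.99 gave a fall of 2.46-fold (log2 -1.30 ± 0.22 SE, adjusted p = 0.000308), and without normalisation the fitted ratio was 0.26. LS0975 was a dim probe at 2.72, 3.56 and 2.09 times background in salt-treated roots, against 2.82, 11.3 and 2.55 times in control roots. It was dimmer in salt-treated RNA on every array, with ratios of -1.11, -2.55 and -0.61 and a fall of 2.45-fold (log2 -1.29 ± 0.26 SE, adjusted p = 0.00181). Array 2 carried the largest part of that change.

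CA0764 and U083 moved almost as one. CA0764 had 28.5, 21.8 and 10.6 times background in salt-treated roots and 7.78, 43.2 and 9.69 times in control roots. U083 had 28.4, 25.3 and 9.77 times in salt-treated roots and 6.60, 44.7 and 8.74 times in control roots. Their ratios were -1.68, -1.87 and -0.44 for CA0764 and -1.42, -1.74 and -0.30 for U083, smallest on the swapped array in both. The falls were 2.37-fold (log2 -1.25 ± 0.22 SE, adjusted p = 0.000391) for CA0764 and 2.13-fold (log2 -1.09 ± 0.21 SE, adjusted p = 0.000685) for U083. U284, a bright probe at 51.8, 77.8 and 11.9 times background in salt-treated roots and 14.5, 56.5 and 28.4 times in control roots, had ratios of -0.96, -0.37 and -2.02 (log2 -1.19 ± 0.24 SE, adjusted p = 0.00104). Its salt-treated signal was saturated on array 2, so the ratio there is cut off.

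The other 3 of the 10 largest falls on 3 arrays lay between 2.07-fold and 2.23-fold. U205 had ratios of -1.64, -1.29 and -0.83 (log2 -1.16 ± 0.15 SE, adjusted p = 2.83e-05). CA1002 had -1.49, -1.12 and -0.74 (log2 -1.06 ± 0.15 SE, adjusted p = 4.69e-05), and U079 had -1.55, -0.53 and -0.91 (log2 -1.05 ± 0.21 SE, adjusted p = 0.00104). Array 1 gave the lowest ratio in all 3. Without normalisation the fitted ratios of CA0764, U083, U284, U205, CA1002 and U079 lay above 0 too. On 2 arrays the largest falls were those of U252, U412 and U399. U252 was called on the 2 arrays of the same dye orientation, with ratios of -2.25 and -0.36 (log2 -1.46 ± 0.43 SE, adjusted p = 0.0213). Over all its spots, flagged ones included, its signal was not lower under salt on any array. It was 2.97, 3.13 and 1.56 times background in salt-treated roots, against 1.65, 2.60 and 1.35 times in control roots. The salt-treated signal passed background on 2 arrays and the control signal on 1. U252 is the single call without both dye orientations, and its ratio of -2.25 rests on 1 spot. U412 had -1.08 and -1.52 on arrays 2 and 3 (log2 -1.30 ± 0.19 SE, adjusted p = 0.000182). U399 had -0.41 and -1.71 there (log2 -1.06 ± 0.38 SE, adjusted p = 0.0366), the latter from 1 spot.

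**Figure D3:**
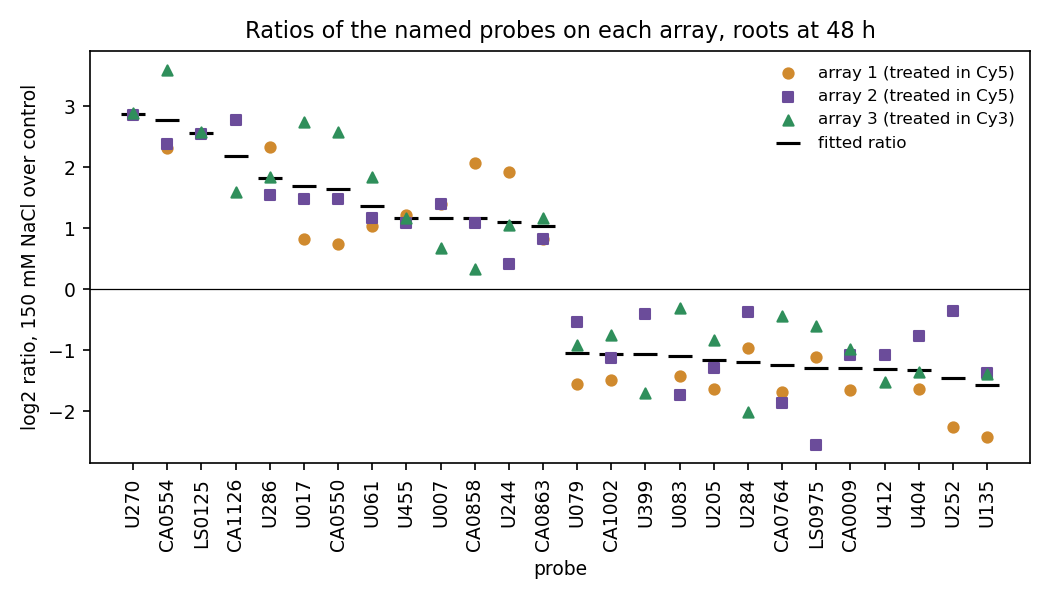
Normalised log2 ratio of salt-treated over control roots (vertical axis) on each array for the 26 named probes with the largest rises and falls (horizontal axis), with the fitted ratio as a black line. Points are arrays 1 and 2 (salt-treated RNA in Cy5) and array 3 (salt-treated RNA in Cy3). Every point of a rise lies above 0 and every point of a fall below 0, as the choice of probes required. The arrays nearly coincide for U270 (2.86 and 2.88) and lie far apart for U017 (0.83, 1.48 and 2.75).

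Among 144 tested probes that were not called, 93 had a 95% confidence interval within 1 log2 unit on either side of 0. The narrowest were those of U428, U304, U162 and U054. U304 had a fitted ratio of 0.10 with an interval of -0.17 to 0.37 (adjusted p = 0.599), U162 of -0.18 with an interval of -0.47 to 0.11 (adjusted p = 0.341), and U054 of -0.08 with an interval of -0.38 to 0.22 (adjusted p = 0.718). U428 lay at -0.25 with an interval of -0.50 to -0.0036 (adjusted p = 0.101) and all 3 arrays below 0. These values moved with the treatment of flags. With spots dropped only where both channels were flagged, U428 (-0.44, adjusted p = 0.0181), U162 (-0.74, adjusted p = 0.0177) and U054 (-0.48, adjusted p = 0.0149) were called lower, and U304 was called higher only without normalisation (1.66, adjusted p = 0.000207). The spread between arrays was similar in called and uncalled probes measured on 3 arrays, with a median SD of 0.411 and 0.427 on the log2 scale.

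The prefix classes differed in how much could be tested. Of the U probes 173 of 442 were tested, with 45 higher and 30 lower, and of the CA probes 58 of 117, with 10 higher and 12 lower. LS probes were mostly dim. Only 13 of 156 were tested, with 1 higher (LS0125) and 2 lower (LS0975 and LS0740), and 83 were above background in no root channel. LS0740 had ratios of -0.09, -1.46 and -0.68 and fell 1.64-fold (log2 -0.71 ± 0.22 SE, adjusted p = 0.0205). It was not called without array 2 (-0.39, adjusted p = 0.204) or without array 3 (-0.67, adjusted p = 0.0956), and its fitted ratio without normalisation was 0.42. All 41 LC probes were below background in every root channel, so nothing can be said of them.

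Every class but LC had probes seen in salt-treated roots only. Of the 48 probes above background in all salt-treated and no control channels (6.35% of 756), 17 were LS probes (10.9% of that class), 10 were CA probes (8.55%) and 21 were U probes (4.75%). No fold change can be given where the control has no measured level, so a bound was computed against the dimmest probe above background in the same control channels. The bounds ran up to 17.6-fold with a median of 3.52-fold, and 45 of 48 reached 2-fold. They rest on a loess curve drawn through unflagged spots and are not strict. With flagged spots in the curve, a setting added after the data were seen, all 48 bounds were lower, with a median of 1.24-fold and a highest of 6.55-fold, and 9 reached 2-fold while 13 gave no bound above 1. A fit that kept flagged spots called 33 of the 48 higher, and 17.9% of all 756 probes. The 48 were picked on these same channels, so a high share was built in and is no separate support. The fold from that fit lay below the bound for 43 of the 48. Signals were 1.54 to 30.3 times the background in salt-treated roots and 0.876 to 1.76 times in control roots. None of the 48 entered the test of ratios, since flags left at most 1 array with a ratio.

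LS0185 had the highest bound under both curves. Its signal was 8.10, 8.89 and 12.9 times background in salt-treated roots, against 1.07, 1.08 and 1.07 times in control roots, and its bound was 17.6-fold, or 6.55-fold with flagged spots in the curve. U391 was at 30.3, 3.84 and 6.71 times background in salt-treated roots, against 1.10, 1.18 and 1.54 times in control roots, with a bound of 12.2-fold, or 4.77-fold with flagged spots. Its single unflagged log2 ratio was 1.74, on array 3, below what either bound gives. The difference was even over arrays in LS0185, while array 1 stood far above the others in U391. U271 (9.48, 7.52 and 9.90 times in salt-treated roots, against 1.23, 1.11 and 1.50 times in control roots) had a bound of 11.7-fold, or 4.37-fold with flagged spots. CA1198 (11.6, 9.65 and 6.58 times in salt-treated roots, against 1.13, 1.54 and 1.32 times in control roots) had one of 11.4-fold, or 4.74-fold. These 4 probes lay at or above 3.84 times background in every salt-treated channel and at or below 1.54 times in every control channel.

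LS0035, LS0616 and LS0109 were alike in brightness. LS0035 was at 13.3, 13.4 and 7.47 times background in salt-treated roots, against 1.31, 1.50 and 0.949 times in control roots, with a bound of 9.25-fold, or 4.41-fold with flagged spots in the curve. LS0616 (13.2, 8.38 and 6.71 times in salt-treated roots, against 1.46, 1.32 and 1.05 times in control roots) had a bound of 7.39-fold, or 3.46-fold. LS0109 (10.0, 8.15 and 6.52 times in salt-treated roots, against 1.44, 1.28 and 0.985 times in control roots) had one of 7.15-fold, or 2.99-fold. The swapped array gave the lowest signal in both channels of all 3. U038, with 14.6, 5.06 and 2.15 times background in salt-treated roots against 1.10, 1.33 and 1.33 times in control roots, had a bound of 6.68-fold, or 2.28-fold, and varied most between arrays of these 4. The bounds were smallest for LS0159, 1.72-fold (2.17, 1.74 and 1.57 times in salt-treated roots, against 1.15, 1.22 and 1.11 times in control roots), and U333, 1.68-fold (2.59, 1.57 and 1.54 times in salt-treated roots, against 1.32, 1.19 and 1.11 times in control roots). With flagged spots in the curve neither had a bound above 1.

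The other LS probes of this kind were LS0024, LS0041, LS0064, LS0081, LS0162, LS0210, LS0448, LS0701, LS0731, LS0783, LS0882 and LS0991. LS0991 had 4.78, 6.53 and 1.87 times background in salt-treated roots, against 1.07, 1.51 and 1.01 times in control roots, and LS0024 had 2.63, 2.62 and 5.22 times in salt-treated roots, against 1.37, 1.10 and 0.970 times in control roots. LS0024 was brightest on the swapped array and LS0991 dimmest there. Which probes belong depended on how being above background was defined: with 3 SDs there were 44, of which 20 were among the 48, and 3 probes (LS0185, U114 and U257) were seen in salt-treated roots only under every definition tried. Leaving out an array asks the rule only of the remaining arrays, so the count could stay or rise but not fall. It was 140 without array 2 and 74 without array 3.

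**Figure D4:**
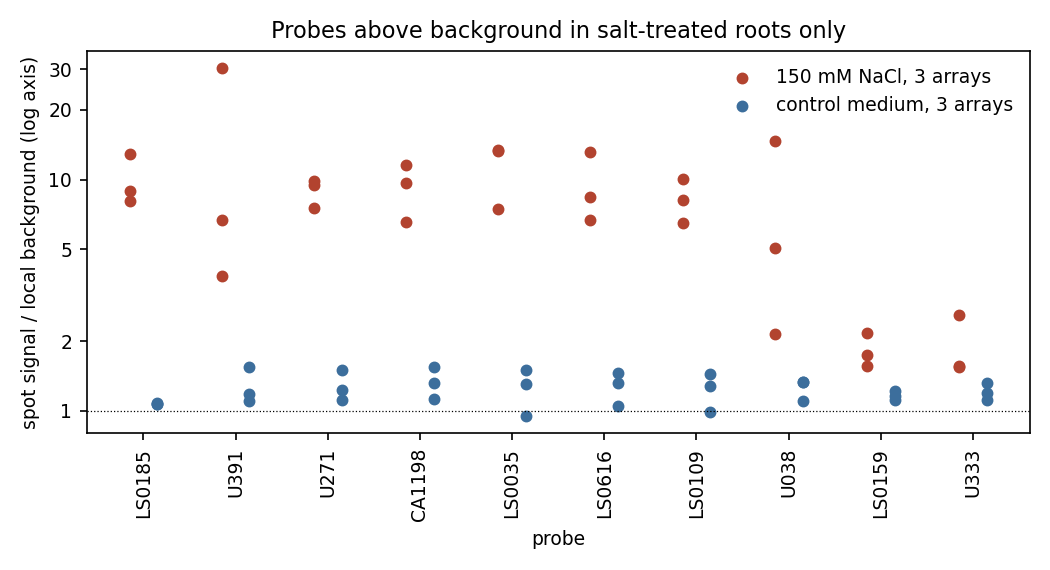
Spot signal over local background (vertical log axis) on the 3 arrays for the 8 probes with the highest bounds and the 2 with the lowest (horizontal axis), among probes above background in salt-treated roots only. Red points are salt-treated roots and blue points control roots; LS0185 has 8.10 to 12.9 in salt-treated against 1.07 to 1.08 in control roots, while the points of LS0159 and U333 come close to each other.

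These 48 probes were also looked up in unstressed tissue elsewhere in the series. In control shoots of the same age at 48 h, 31 of the 48 were above background on at least 1 array (66.3% of all 756 probes were) and 12 on all 3 (43.9% of all were). Control leaves and control flowers with early pods each showed 40 of the 48 on at least 1 of 6 arrays, as they did 75.9% of all probes. Over all 18 control channels outside the roots, 43 were seen at least once. The exceptions were LS0162, LS0783, U084, U272 and U347, which makes 5 of 48, while 147 of all 756 probes (19.4%) were seen in none of those channels. In shoots at 48 h, 9 probes (1.19%) were above background in salt-treated RNA only on all 3 arrays, and 1 of them, U245, was among the 48 of roots.

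The response at 24 h could be read from 1 scan. The files of roots taken after 24 h hold 3 copies of it, with equal pixel SDs at 99.7% to 100% of spots, so values at 24 h have no replicate and were not tested. The copies conflict in their dye names, so no dye effect was taken off. Of the 56 rises at 48 h, 54 had a ratio at 24 h, 48 of them above 0 (53.6% of all 306 probes with a ratio were) and 28 at least 2-fold higher (14.7% of all). Of the 44 falls, 41 had a ratio, 36 of them below 0 (46.4% of all) and 13 at least 2-fold lower (8.17% of all). CA0554 stood at 3.47 on the log2 scale at 24 h, LS0125 at 2.75, U286 at 2.39, U270 at 2.38 and U350 at 2.34. Among the falls U284 stood at -1.87 at 24 h, U404 at -1.47 and U135 at -1.11. All 8 of these had the same sign as at 48 h.

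Most probes seen in salt-treated roots only at 48 h were also seen so at 24 h. In that scan 37 of the 48 were above background in the salt-treated channel only, where 98 of all 756 probes (13.0%) were. Of the others 3 were above background in the control channel (U038, CA0706 and U494) and 8 in neither channel. Whether the brightness of the control channel differed at 24 h in the same way as at 48 h was not tested, but 394 to 403 probes were above background in salt-treated and 307 to 313 in control channels of the copies.

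Roots were next set against shoots of seedlings of the same genotype, age, dose and time, with the difference of the log2 ratios tested in the same fit. Of 236 probes measured in both, 61 differed (25.8%), 31 with the ratio higher in roots (13.1%) and 30 lower (12.7%). Without normalisation 75 differed, all with the ratio higher in roots. Of the 61, 47 were also called in roots themselves. All 25 root rises among them stood above the shoot ratio, and all 22 root falls stood below it. Both tests use the same root ratio, so this match of directions was favoured by the selection. Among the 53 root rises tested in shoots, 16 were also higher in salt-treated shoots (13.4% of shoot probes were). Another 11 were lower there, a share close to the 17.9% of all shoot probes that were. Of the 44 root falls tested in shoots, 5 were higher and 6 lower there, neither share above that of all shoot probes.

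U126 and U350 had opposite signs in the 2 organs, and both signs passed the threshold. U126 stood at 1.70 in roots and -0.997 in shoots on the log2 scale, a difference of 2.69 ± 0.42 SE (adjusted p = 0.000244). U350 stood at 2.07 in roots and -0.60 in shoots, a difference of 2.67 ± 0.23 SE (adjusted p = 3.62e-06). CA0554 and U270 rose in roots without a call in shoots: CA0554 stood at 2.77 in roots and 0.15 in shoots (difference 2.62 ± 0.38 SE, adjusted p = 0.000167), and U270 at 2.87 in roots and 0.30 in shoots (difference 2.57 ± 0.29 SE, adjusted p = 2.99e-05). Among the falls, U135 stood at -1.58 in roots and 0.68 in shoots, a difference of -2.26 ± 0.28 SE (adjusted p = 4.1e-05). U399 stood at -1.06 in roots and 0.87 in shoots (difference -1.93 ± 0.49 SE, adjusted p = 0.00888). CA0764 stood at -1.25 in roots and 0.62 in shoots (difference -1.86 ± 0.31 SE, adjusted p = 0.000341), and LS0975 at -1.29 in roots and 0.44 in shoots (difference -1.73 ± 0.36 SE, adjusted p = 0.00329). U135, U399 and CA0764 were called lower in roots and higher in shoots. Without normalisation these 4 differences of falling probes were no longer called.

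Other large root rises did not differ from shoots past the threshold. CA1126 stood at 2.18 in roots and 2.91 in shoots, a difference of -0.72 ± 0.76 SE (adjusted p = 0.518), so the interval is wide. U061 stood at 1.37 in roots and 0.90 in shoots (difference 0.47 ± 0.20 SE, adjusted p = 0.0823), and U007 at 1.17 in roots and 1.20 in shoots (difference -0.03 ± 0.29 SE, adjusted p = 0.925). CA1126, U061 and U007 were called higher in both organs. A further 14 probes differed between organs without being called in roots. Among them, both picked out after their values were seen, were U098 at 0.69 in roots and 3.58 in shoots (difference -2.89 ± 0.68 SE, adjusted p = 0.00449) and U034 at 1.13 in roots and 3.15 in shoots (difference -2.02 ± 0.64 SE, adjusted p = 0.029). U098 was saturated in salt-treated roots on 3 arrays and U034 on array 1, so their root ratios are cut off and the sizes of these differences are not exact. Of the 30 probes with the ratio lower in roots, 3 were saturated there on at least 1 array (U098, U034 and U284). Their ratios on the root arrays were 0.50, 1.85 and -0.35 for U098 and 0.22, 1.49 and 1.37 for U034. Shoot channels at 48 h were saturated too, at 27, 28 and 6 probes in salt-treated and 32, 31 and 12 in control RNA. Shoot ratios can therefore be cut off in either direction, and which differences this touches was not tested.

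**Figure D5:**
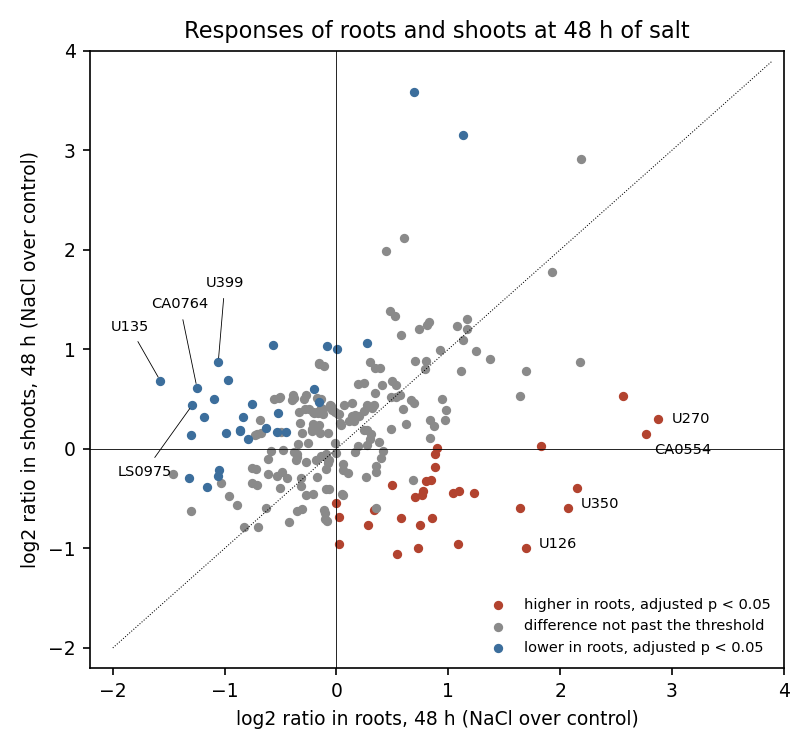
Fitted log2 ratio of salt-treated over control tissue in roots (horizontal axis) and in shoots (vertical axis) at 48 h, 1 point for each of 236 probes measured in both, with the line of equal ratios dotted. Red points had a ratio higher in roots, blue points lower in roots, and grey points did not pass the threshold for a difference; U126 and U350 lie right of and below 0, and U135, CA0764, LS0975 and U399 left of and above it.

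The root calls were also looked up in the other stresses of the series, each of which had control RNA of its own on the same slides. In shoots at 24 h of salt, where 20 of 394 probes were called (5.08%), 4 of 54 root rises were also higher (2.54% of all were) and 6 of 44 root falls were also lower (2.54% of all were). The shared rises were U182, U246, U411 and U455, and the shared falls U082, U205, U219, U334, U403 and U412. In leaves after cold nights 16 of 429 probes were called (3.73%). No root rise was among them, and 4 of 43 root falls were, each of them higher in cold leaves. These were U399 at 1.23, U284 at 1.11, CA0694 at 0.84 and U109 at 0.53 on the log2 scale in cold leaves. In flowers after cold nights 0 of 433 probes passed limma's threshold (51 at an unadjusted p under 0.05), in leaves under drought 0 of 441 (78 unadjusted) and in flowers under drought 0 of 434 (51 unadjusted). Among those unadjusted were 6 of 54 root rises in cold flowers, 9 of 54 in drought leaves and 3 of 53 in drought flowers. Of the 44 root falls tested in each, 5, 9 and 0 were. No share of the rises lay above that of all probes, and of the falls only that in drought leaves did.

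The authors' deposited table gives 1 log2 value per probe for the sample, a mean over the 3 arrays with its own normalisation. It covers 323 of the 756 probes with a column median of -0.33, and its centring is unstated. Of the rises called here, 47 of 55 listed in the authors' deposited table had a value above 0, and of the falls 41 of 42 had a value below 0. Of the 239 probes tested here that the authors' deposited table lists, 39.3% had a value above 0 and 60.3% below 0. CA0554 stood at 3.45, U270 at 3.51 and U135 at -2.87 in the authors' deposited table. For U284 the authors' deposited table gives -0.08, close to 0. The largest mismatch among the uncalled probes with narrow intervals was U162, at -0.18 here and -3.03 in the authors' deposited table. U428 stood at -0.43 there, U304 at 0.35 and U054 at -0.89.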

How the data were processed

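The deposited files hold, per the file headers, the mean intensity of each spot and of its local background for 1 dye, measured with ImaGene 5.5, whose flags mark empty or poor spots. The authors' deposited table holds log2 values that, per the labels, are means over 3 biological replications, with centring unstated. Role and dye of each channel come from the file names. Intensities were background-corrected (normexp, offset 50) and normalised by loess in limma 3.58.1 (R 4.3.3). Spots flagged in either channel were dropped, ratios turned to salt-treated over control, and spots averaged. The fit had 7 conditions on 21 arrays with 1 dye term, so a fitted ratio need not be the mean of its arrays. Benjamini-Hochberg adjustment of the eBayes p-values took in all probes with a ratio on at least 2 arrays, and every adjusted p given is limma's. Of the 244 probes tested, 4 take their spread from the other probes alone. Bounds used channel values after loess, with flagged spots at weight 0, and Aquantile. A saturated probe reached 65535 in at least 50% of its spots.

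Named probes were the 10 largest rises and 10 largest falls among calls with 1 sign on 3 arrays. The 3 of each on 2 arrays, the 8 highest and 2 lowest bounds, and the 4 narrowest intervals without a call were added. The 4 largest differences from shoots in each direction were taken among probes also called in roots. Every LS or LC probe called or seen in salt-treated roots only was named too. The members and lists were chosen with earlier results of these data known. The scripts were tested on simulated data. Depth does not apply to arrays, and the number of arrays limits the precision. Alternatives changed background, normalisation, flags, spot averaging, dye term, weights, samples fitted, array number, dim filter, day and replicates.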

Additional observations from a re-analysis of the deposited data

Results flagged for a closer look

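The response to salt differed between roots and shoots at 48 h, by a test of the difference itself, at 61 of 236 probes. The fixed rule took the 4 largest in each direction among probes also called in roots themselves. Higher in roots were the ratios of U126 (2.69 on the log2 scale, roots minus shoots), U350 (2.67), CA0554 (2.62) and U270 (2.57). U135 (-2.26), U399 (-1.93), CA0764 (-1.86) and LS0975 (-1.73) had the ratio lower in roots. Outside that rule U098 (-2.89) and U034 (-2.02) differed without a call in roots, where both had saturated salt-treated signals. The salt-treated signal of CA0554 was saturated in roots on all 3 arrays, so its difference is measured from a value that the scanner cut off. Shoot channels held saturated probes too, and whether the probes named here were among them was not tested. U126 and U399 had control signals above background on 2 of 3 root arrays.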

How the results depend on the processing

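Of 100 calls in roots, the count was 195 when a spot needed flags in both channels to be dropped (87 higher and 108 lower, of 454 tested), 261 with flagged spots kept (135 and 126, of 756), 63 with roots fitted alone, 56 with values on all 3 arrays and 0 by the methods' t-test after Benjamini-Hochberg (26 unadjusted, of 118). Leaving out each array in turn gave 47 to 83. Under the other planned settings it was 68 to 100, the lowest with scaling between arrays. Settings added after the data were seen gave 137 without normalisation and 9 with the day of quantification as a block and ratios set at the day of array 1 of salt shoots at 24 h. With the block set at the roots' own day it was 94. The cause of these moves was not tested. The flag settings, the 3-array minimum, a minimum of 3 unflagged spots and leaving out array 2 or 3 change how many probes are tested.

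The 61 differences from shoots became 145 and 200 under those flag settings, 34 with values on all 3 arrays, 32 to 56 without single arrays and 75 without normalisation, all higher in roots. The 48 probes seen in salt-treated roots only became 30 with background plus 1 SD. Without single arrays they became 48 to 140, where the looser rule does not let the count fall. Their bounds fell to a median of 1.24-fold, against 3.52-fold, with flagged spots in the loess curve.

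Named probes gave 805 values under alternatives, of which 736 kept direction and side of the threshold, 52 lost the call, 8 gained it and 9 reversed. The 8 gained calls were of U428 (3), U162 (2), U054 (2) and U304 (1), the narrowest intervals without a call. All 9 reversed without normalisation: U404 to 0.28, CA0009 to 0.26, CA0764 to 0.39, U284 to 0.11, U205 to 0.46, U083 to 0.53, CA1002 to 0.48, U079 to 0.52 and LS0740 to 0.42. U286, U061, U270, LS0125 and U350 passed under every alternative that gave them a value. U399 and U252 passed in 12 and 13 of 16, CA0858 in 13 of 20, LS0740 in 14 of 20 and U017 in 15 of 20. No paired analysis was possible because the labels give no replicate numbers that tie plants across samples, and each array already sets salt-treated against control RNA on 1 slide. Dim signals limit what can be tested: 265 probes were above background in no root channel, salt-treated or control, and 199 more had too few unflagged ratios.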

Other observations

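Pairs of probes followed each other over the whole series, noticed after the values were seen. U017 and CA0550 had log2 ratios correlated with r = 0.98 over the 14 arrays that measured both, against 0.84 for the next best partner of U017 and 0.81 for that of CA0550 among 358 probes. CA0764 and U083 had r = 0.97 over 21 arrays, against 0.90 and 0.87 for the next best partners among 385 probes. The arrays share slides' normalisation and dye, and whether the members of a pair share sequence was not tested.

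The 5 probes seen in salt-treated roots only and in no control channel outside the roots were dim. LS0162 had 3.67, 2.97 and 5.05 times background in salt-treated roots, against 1.47, 1.16 and 0.934 times in control roots, with a bound of 4.28-fold, or 1.25-fold with flagged spots in the loess curve. The bounds of U272 (3.72-fold, or 1.24-fold) and U084 (3.03-fold, or 1.05-fold) followed, and those of U347 (2.40-fold) and LS0783 (1.95-fold) were not above 1 with flagged spots in the curve. Of the 48 probes seen in salt-treated roots only, 4 have a value in the authors' deposited table. In the authors' deposited table U391 stood at 2.51, U111 at 1.01, CA0988 at 0.0001 and CA0014 at -0.08.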
